A study of Mus musculus with 4 samples.

Results

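Genes of fibulins, fibrillins, elastin, lysyl oxidase and the fibulin-related matrix protein of Svep1 were followed in immortalized mouse brown preadipocytes, cells that can become brown fat cells. Cells labelled wild type or knock out for the histone H3 lysine 9 methyltransferase G9a were compared. The members were the 10 genes Fbln1, Fbln2, Fbln5, Efemp1, Efemp2, Fbn1, Fbn2, Eln, Lox and Svep1, listed by name with earlier results of these data known. Affymetrix probe sets carrying exactly 1 platform gene symbol, equal to a member's name, were taken. They were 16 probe sets for 8 genes, of 18193 genes named in the table, and Fbn1 and Efemp2 are not analysed here. The mouse cells, of mixed C57/BL6-129 strain, all carried floxed G9a alleles. The 2 control arrays hold cells given vector (labelled wild type), and the other 2 hold cells given Cre (labelled G9a knock out). Both groups are numbered 1 and 2. The labels give neither the age of the source mice nor the method of immortalization, and do not state that the arrays of one group were grown apart, so p-values measure only the spread between these arrays. That spread is not technical alone, since sex-linked transcripts differed between the numbers. Xist, a transcript of the inactive X chromosome, was high in both arrays of number 1 and near the array median or below it in number 2. The Y-linked Eif2s3y went the other way, with 141 and 228 units in number 1 and 1127 and 1265 in number 2. Kdm5d (45.1 and 56.3 against 235 and 281) followed it, Uty (46.9 and 70.6 against 78.4 and 110) less so. The cells of the 2 numbers thus differ, and a part of sex cannot be told apart from other differences between them.

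Elastic fibres give tissues recoil. Cells secrete tropoelastin, which is laid down on a scaffold of fibrillin microfibrils with the help of fibulins and is then crosslinked by lysyl oxidase. Microfibrils also hold latent TGF-beta and BMP complexes in the matrix around mesenchymal cells, from which preadipocytes derive.

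The genotype check came first. Signals of Ehmt2, the G9a gene, were 2682 and 2688 units in the vector arrays and 953 and 912 in the Cre arrays, a 2.81-fold lower level. A second probe set (1426888_at) read 150 and 174 against 46.2 and 66.5 units. Array medians lay between 50.6 and 78 units, so the Cre readings of the first probe set stayed well above them. Loss of the G9a protein was not measured. Of the 12 preadipocyte and mesenchymal markers with a probe set, 11 passed the level filter described below. Their summed signal ran from 75120 to 82349 in vector cells and from 92505 to 92962 in Cre cells. Members of that list differed in direction: S100a4 and Col3a1 rose in the paired model, while Dlk1, with 5421 and 5238 units in vector arrays against 1690 and 4882 in Cre arrays, Pdgfra (a log2 difference of -0.83) and Cd34 (-0.44) were lower without overlap and did not pass. Mature adipocyte markers, 10 with a probe set, summed to 936 to 1517 units in vector cells and 2010 to 2519 in Cre cells, and 1 of the 5 tested, Fabp4, rose in the paired model (186 and 112 against 908 and 1120 units). The adipocyte markers Adipoq, Cidea, Cidec, Lep and Ucp1 lay below the filter, as did the leukocyte marker Ptprc and the endothelial markers Pecam1 and Cdh5. However, 4 of the 10 macrophage and leukocyte markers (Cd14, Cd68, Csf1r and Laptm5) and 1 of the 8 endothelial markers (Egfl7) passed it. Cd14 read 539 and 408 units in vector arrays and 560 and 352 in Cre arrays. Smooth muscle and myofibroblast markers, 11 with a probe set, summed to 34900 to 42899 units in vector cells and 50805 to 51916 in Cre cells. Skeletal muscle markers, 9 with a probe set, summed to 335 to 420 and 544 to 1101 units, with Myod1 and Myog below the filter. The sums of these 4 lists were thus higher in both Cre arrays than in both vector arrays. Fabp4 carried much of the adipocyte sum. Acta1 (134 and 115 against 370 and 308 units) and Tnnt3 (14.6 and 4.2 against 382 and 36.6) carried much of the skeletal muscle sum. Of the 8 tested smooth muscle markers 3, Actg2, Mylk and Myl9, rose in the paired model (2.29% of all probe sets rose). The rest did not pass, Cnn1 differing by 0.99, Des by 0.79, Smtn by 0.12, Acta2 by 0.11 and Tagln by 0.06. The part of these lists in the results below was not tested. In RNA from a whole culture, fewer cells of a type and less RNA per cell cannot be told apart.

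The upstream sequences of Svep1, Fbln1 and Fbln5 are shown because their transcripts were lower in both Cre arrays than in both vector arrays. Fbn2, which was lower too, is named only. Each run is the 250 bases before the annotated start, on the gene's own strand, from RefSeq on GRCm38.p6. Capitals mark matches, on either strand, to the GC box (GGGCGG), the TATA box (TATAAA), the CCAAT box (CCAAT), the AP-1 site (TGANTCA) or the SMAD element (CAGACA).
Svep1, chr4:58206597-58206846, minus strand: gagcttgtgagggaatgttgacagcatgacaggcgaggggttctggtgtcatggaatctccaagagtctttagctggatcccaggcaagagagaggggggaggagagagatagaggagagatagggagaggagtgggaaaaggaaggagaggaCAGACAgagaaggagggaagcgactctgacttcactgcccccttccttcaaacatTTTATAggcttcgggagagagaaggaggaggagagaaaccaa
Fbln1, chr15:85205699-85205948, plus strand: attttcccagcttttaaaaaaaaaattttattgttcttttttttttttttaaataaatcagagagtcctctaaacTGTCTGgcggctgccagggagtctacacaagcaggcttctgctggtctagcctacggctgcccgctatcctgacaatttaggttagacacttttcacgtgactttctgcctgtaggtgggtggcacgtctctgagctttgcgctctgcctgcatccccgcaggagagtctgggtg
Fbln5, chr12:101819120-101819369, minus strand: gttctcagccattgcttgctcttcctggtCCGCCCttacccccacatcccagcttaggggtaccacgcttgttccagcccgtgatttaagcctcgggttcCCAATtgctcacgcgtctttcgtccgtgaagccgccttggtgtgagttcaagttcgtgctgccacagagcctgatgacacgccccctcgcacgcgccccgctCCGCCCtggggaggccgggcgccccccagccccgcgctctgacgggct

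Svep1 held a TATA box match, on the strand opposite to the gene, whose letters begin 42 bases before the start. It also held a SMAD element match and 3 CpG dinucleotides, fewer than the median of 6 over all 32851 windows of this length. Fbln1 held 1 SMAD element match and 7 CpG. Fbln5 held 2 GC box matches, 1 CCAAT match and 21 CpG, more than 83.7% of windows have. A second start is annotated for 2 of these genes. The other Fbln5 window held 1 SMAD element match, 0 GC box matches and 6 CpG. The other Fbln1 window overlaps the one shown and held the same SMAD element match, 1 GC box match and 14 CpG. Which matches the genes share therefore depends on the start taken. Over all windows, 12.4% held a TATA box match, 17.1% a SMAD element match, 32.7% a GC box match, 33.8% a CCAAT match and 6.75% an AP-1 match. The window of Fbln2, a gene with little difference between the groups, held 1 GC box match and 8 CpG. Matches describe letters only. Of the 8 measured genes, 5 had a window in the table.

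Of the 7 genes with a tested probe set, 4 were lower in Cre cells without overlap of the groups: Fbn2, Svep1, Fbln1 and Fbln5. The others, Efemp1, Fbln2 and Lox, overlapped, and Eln, which was too dim to test, was brighter in Cre cells. Among all 22519 tested probe sets 15.8% were lower without overlap and 14.2% higher. A probe set was tested if its mean over the 4 arrays reached the 50th percentile, which 11 of the 16 did. Differences are Cre minus vector in log2(signal + 16) after quantile normalization, a scale that understates the change of dim genes. Signals in the text are as deposited. Apart from the marker sums above, signals of different probe sets are not set against each other, since their probes differ. Those sums are ruled by the brightest probe sets of each list.

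Without regard to replicate number, 0 of the 7 genes passed limma at an adjusted p under 0.05, as did 0.00888% of all probe sets. At an unadjusted p under 0.05 there were 3 of 7, and 4.13% of all probe sets. When the number was added as a block, called the paired model here, 4 of the 7 fell and 0 rose, against 0.853% of all probe sets falling and 2.29% rising. Since the genes were listed with earlier results known, this is a description of them. The median difference over the 7 genes was -0.90, against -0.02 over all tested probe sets. In both pairs alike 4 of 7 were lower (33.2% of all), and 2 of 7, Fbn2 and Svep1, were at least 2-fold lower (0.249% of all). Of the 4 paired calls, Fbn2 alone was kept without the level filter or without the intensity trend, settings combined with the block after the data had been seen.

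**Figure D1:**
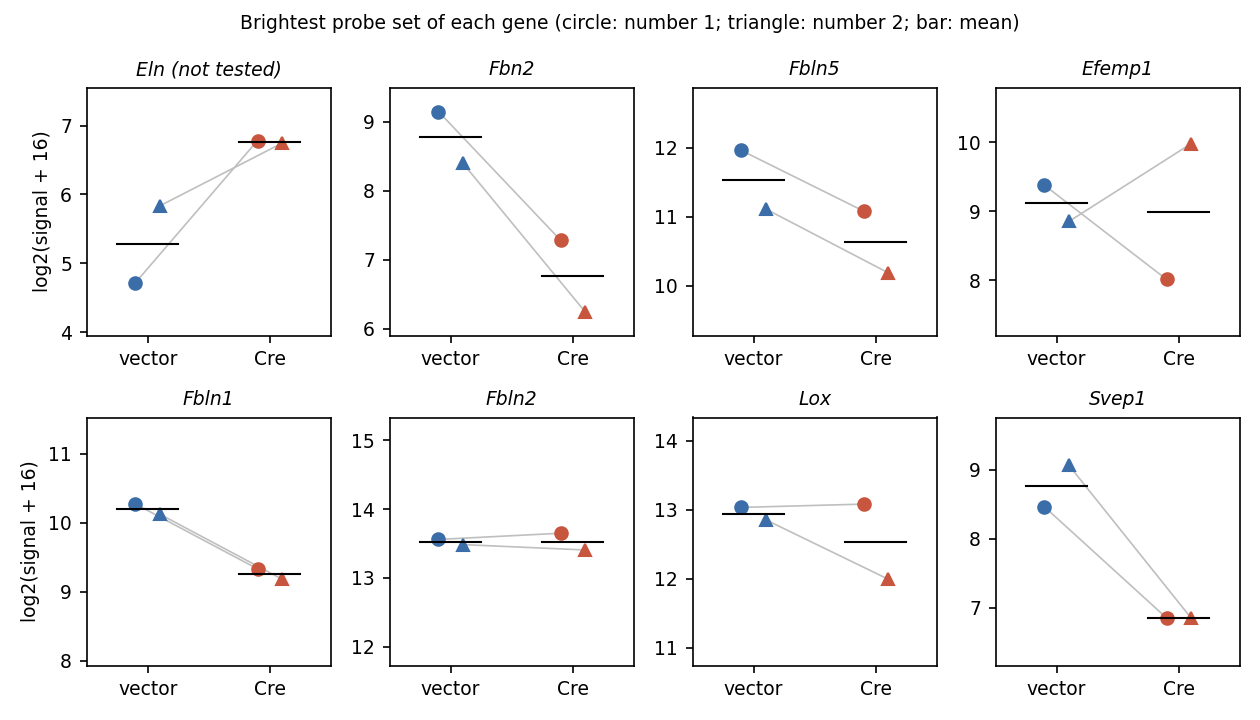
Level of each gene's brightest probe set in the 4 arrays, as log2(signal + 16) after quantile normalization, with vector cells in blue, Cre cells in red, circles for number 1, triangles for number 2, bars for group means and grey lines joining arrays of 1 number; every panel spans the same log2 range. Both Cre arrays lie below both vector arrays for Fbn2, Fbln5, Fbln1 and Svep1, while the lines of Efemp1 cross.

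Elastin, the elastic core protein, was the only one of the 8 genes with no tested probe set. Its brighter probe set (1420855_at) read 10.7 and 33.4 units in vector arrays 1 and 2 and 112 and 79.3 in Cre arrays 1 and 2. Both Cre arrays lay above both vector arrays, and the vector readings were below the array medians. The differences were 2.06 in number 1 and 0.91 in number 2. Fitted without the level filter, the paired model gave a difference of 1.49 ± 0.40 (SE, n = 2 against 2; limma adjusted p = 0.273). The second probe set (1420854_at) stayed between 4.4 and 16.3 units in all 4 arrays.

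Fbn2, which encodes fibrillin-2, a microfibril protein best known from developing tissues, was 4.03-fold lower in Cre cells. Its brighter probe set (1454830_at) read 582 and 293 units in vector arrays 1 and 2 and 161 and 50.7 in Cre arrays 1 and 2. The groups did not overlap, and number 2 lay below number 1 in both. The log2 difference was -2.01 ± 0.44 (SE, n = 2 against 2; limma adjusted p = 0.562), or -1.87 and -2.15 within numbers 1 and 2. Fbn2 fell in the paired model (SE 0.21; limma adjusted p = 0.000579). The second probe set (1422831_at), with 311 and 110 against 58.2 and 12.5 units, differed by -2.28 ± 0.51 and also fell with the block (limma adjusted p = 0.00122). Both its Cre readings lay below the medians of their arrays (78 and 52.5 units). It passed the level filter through its vector readings, so its call adds little to that of the first.

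Fbln5 encodes fibulin-5, which binds tropoelastin and integrins and is needed to assemble elastic fibres. The tested probe set (1416164_at) read 3853 and 2238 units in vector arrays 1 and 2 and 2105 and 1122 in Cre arrays 1 and 2. The groups did not overlap, although vector array 2 and Cre array 1 lay close together. The difference was -0.90 ± 0.40 (SE, n = 2 against 2; limma adjusted p = 0.999), and -0.88 and -0.92 within the numbers, a 1.87-fold lower level that was alike in both pairs. It fell with the block (SE 0.13; limma adjusted p = 0.00437). Leaving out 1 array unbalances the numbers, and the unpaired difference was then -0.48 without vector array 1, -1.33 without vector array 2, -1.35 without Cre array 1 and -0.45 without Cre array 2. The other probe set (1446377_at), at 8.2 to 18.7 units, was not tested.

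Fbln1 encodes fibulin-1, a fibulin of basement membranes and elastic fibres that binds fibronectin. Its brightest probe set (1451119_a_at) read 1251 and 1098 units in vector arrays and 646 and 542 in Cre arrays. Each group was tight, and the difference was the same in both numbers, -0.94 and -0.94, a 1.92-fold lower level (SE 0.23, n = 2 against 2; limma adjusted p = 0.677). A second probe set (1422540_at) read 620 and 449 against 363 and 249 units and differed by -0.79 ± 0.26. Both fell in the paired model, with a limma adjusted p of 0.0111 and 0.0446, the second close to the threshold. The third, dim probe set (1439688_at; 34.9 to 70 units, not tested) did not follow them, at 0.54 and -0.03 within the numbers.

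Svep1 encodes a large secreted protein with sushi and EGF-like modules that binds an integrin and is known for its part in lymphatic vessel growth. Its only probe set (1419182_at) read 359 and 495 units in vector arrays 1 and 2 and 118 and 87.2 in Cre arrays 1 and 2. The vector arrays were the more apart of the 2 groups. After quantile normalization the Cre arrays both stood at 6.85 on the log2 scale, against 8.46 and 9.07 in the vector arrays. The difference was -1.91 ± 0.29 (SE, n = 2 against 2; limma adjusted p = 0.28), or -1.61 and -2.21 within the numbers. It fell with the block (SE 0.23; limma adjusted p = 0.00121).

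Fbln2, which encodes fibulin-2, a fibulin of vessel walls and basement membranes, differed little between the groups. Its bright probe set (1423407_a_at) read 11446.5 and 11565 units in vector arrays and 13006 and 11358.5 in Cre arrays. The groups overlapped, with a difference of 0.0065 ± 0.12 and a 95% interval from -0.28 to 0.30. The dimmer probe set (1438375_at) read 360 and 186 against 375 and 222 units, a difference of 0.10 ± 0.33. In the paired model neither passed, with a limma adjusted p of 0.98 and 0.851.

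Efemp1, which encodes fibulin-3, moved in opposite directions in the pairs. Its probe set (1427183_at) read 674 units in vector array 1 and 270 in Cre array 1, but 420 in vector array 2 and 962 in Cre array 2. The Cre arrays thus held both the lowest and the highest reading. Within numbers 1 and 2 the differences were -1.37 and 1.13, which average to -0.12 ± 0.63 (95% interval -1.64 to 1.41). Of all tested probe sets 38.8% had opposite signs in the pairs, and 5, or 0.0222%, were at least 2-fold apart in each. With 1 array per group and number, the difference between the pairs could not be tested.

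Lox encodes lysyl oxidase, the copper enzyme that crosslinks elastin and collagen. The brightest probe set (1416121_at) read 7925 and 7625 units in vector arrays 1 and 2 and 8448 and 4188 in Cre arrays 1 and 2. Cre array 2 alone was low, and the groups overlapped. The differences were 0.05 in number 1 and -0.86 in number 2, together -0.41 ± 0.34 (limma adjusted p = 0.999, or 0.261 with the block). A second probe set (1448228_at) read 4095 and 3634 against 3439 and 1929 units and gave -0.24 and -0.87 within the numbers (limma adjusted p = 0.0847 in the paired model). The third (1437903_at; 21.3 to 97.8 units) was not tested.

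**Figure D2:**
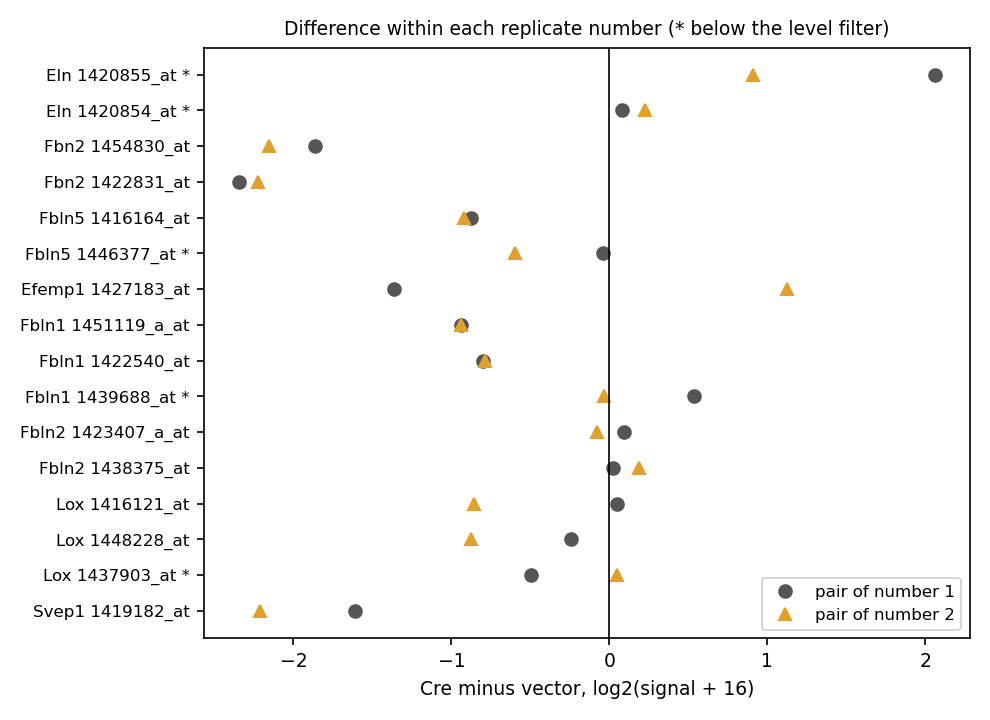
Cre minus vector difference of all 16 probe sets, in log2(signal + 16), within number 1 (grey circles) and number 2 (yellow triangles), with an asterisk for the 5 probe sets below the level filter. Both tested probe sets of Fbn2 and of Fbln1, and those of Fbln5 and Svep1, lie left of 0 in both numbers, and the Efemp1 points stand at -1.37 and 1.13.

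The replicate numbers, which differ in X-linked and Y-linked transcripts, also differed in these genes. In the model with group and number, 3 of the 7 genes passed between the numbers, all lower in number 2, against 7.6% of all probe sets that were lower and 15% that passed in either direction. In both groups 5 of the 7 lay lower in number 2 (33.6% of all probe sets). Fbln5 was lower in number 2 by -0.85 in vector cells and by -0.89 in Cre cells, about the size of its group difference (together -0.87 ± 0.13; limma adjusted p = 0.00265). For Fbn2 the values were -0.75 and -1.04 (together -0.89 ± 0.21; limma adjusted p = 0.0202). Lox passed as well (-0.63 ± 0.17; limma adjusted p = 0.0285), but with -0.18 in vector cells and -1.09 in Cre cells. The Fbln1 values were -0.15 in both groups. Svep1 was higher in number 2 by 0.60 in vector cells and level in Cre cells after normalization (0.0012). Its deposited Cre signals were 118 in number 1 and 87.2 in number 2.

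**Figure D3:**
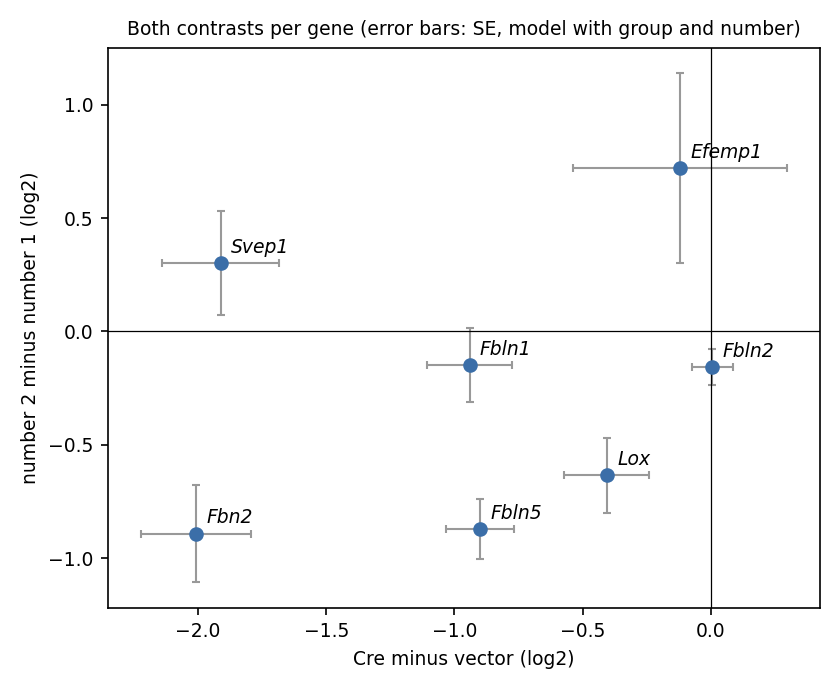
Cre minus vector (horizontal) against number 2 minus number 1 (vertical) for the 7 tested genes, both in log2 units, with SE bars from the model with group and number. Fbn2 and Fbln5 are low on both axes, Svep1 and Fbln1 differ mainly between vector and Cre cells, and Fbln2 lies near 0 on the horizontal axis.

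Likeness of pattern was measured as the root mean square distance between log2 values centred on each gene's mean over the 4 arrays. Among the 7 genes the nearest were Fbln5 and Lox (0.349), then Fbln5 and Fbln1 (0.363). The farthest were Fbn2 and Efemp1 (1.42). Over all 11078 other tested genes, those nearest to Fbn2 were Crabp1, which encodes a retinoic acid binding protein (0.208), Msi1, an RNA-binding protein gene (0.272), and the Wnt ligand gene Wnt10a (0.303). Over 4 arrays such a ranking only describes these arrays.

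Other genes of elastic fibre assembly were read from 4 lists that hold 85 entries, of which 54 had a tested probe set. Without the pairing 0 of the 54 passed limma (0.00888% of all probe sets), and 5 had an unadjusted p under 0.05 (4.13% of all). In the paired model 3 fell and 6 rose (0.853% and 2.29% of all, shares that also stand beside the counts of each list below). Values after ± are SE of the fit without the block, n = 2 against 2. The median difference over the 54 was 0.15, against -0.02 over all tested probe sets.

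The 18 tested assembly partners of microfibrils had a median difference of 0.01, 6 of them lower and 5 higher in both pairs, with 3 that fell and 1 that rose in the paired model. Emilin2, which encodes an elastin interface protein, read 955 and 1086 units in vector arrays 1 and 2 and 245 and 418 in Cre arrays 1 and 2, a 3.11-fold lower level (-1.64 ± 0.36; limma adjusted p = 0.581, or 0.00173 with the block, where it fell). Dcn, the decorin gene, read 399 and 76.8 against 112 and 6.7 units, so the groups overlapped while each pair fell by 1.85 and 2.17 (limma adjusted p = 0.00256 in the paired model). The Dcn reading of Cre array 2 lay below the median of that array (52.5 units). The size of the Dcn difference thus depends on the constant added before the log, with -2.69 for 1 and -1.30 for 64. The mean log2 level of Dcn was 7.69 in vector arrays and 5.68 in Cre arrays. It passed the level filter through its vector mean, so its call, 1 of the 3, adds little. Vcan, which encodes the proteoglycan versican that binds fibrillin and fibulins, read 2109 and 3937 against 1432 and 1955 units and differed by -0.75 ± 0.33 (limma adjusted p = 0.0192 with the block, where it fell). The gene that rose, named after its value was seen, was Mfap5, the gene of a microfibril glycoprotein, with 349 and 26.2 against 863 and 81.4 units (1.26 ± 1.20; limma adjusted p = 0.999, or 0.00997 with the block). Its 2 numbers stood further apart than its groups, and the unpaired difference turned to -0.15 without vector array 2 and -0.24 without Cre array 1, and was 2.67 without vector array 1 and 2.76 without Cre array 2. Ltbp1, a latent TGF-beta binding protein gene, differed by -0.22 ± 0.20.

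Of the 11 tested crosslinking and processing genes, 0 fell and 2 rose in the paired model, and 9 were higher in both pairs, against 27.9% of all probe sets. Tll1, which encodes a tolloid-like metalloproteinase that processes matrix precursors, read 564 and 332 units in vector arrays and 1137 and 828 in Cre arrays (1.14 ± 0.30; limma adjusted p = 0.00493 in the paired model). Pcolce2, a procollagen processing enhancer gene, read 980 and 2302 against 2761 and 3471 units (1.07 ± 0.41; limma adjusted p = 0.0164 in the paired model). The lysyl oxidase family gene Loxl4 differed by 0.59 ± 0.30 and Bmp1, the procollagen proteinase gene, by 0.31 ± 0.20. Neither passed in either model.

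Among 14 tested receptors and growth factors, 0 fell and 2 rose in the paired model, and 1 was lower and 7 higher in both pairs. Itgb3, which encodes an integrin subunit that pairs with alpha-V, read 258 and 228 units in vector arrays and 567 and 682 in Cre arrays (1.28 ± 0.25; limma adjusted p = 0.424, or 0.00443 with the block). Tgfb2, the TGF-beta 2 gene, read 264 and 176 against 709 and 323 units (1.09 ± 0.37; limma adjusted p = 0.0202 in the paired model). Tgfb1 and Itgb1 differed by 0.34 ± 0.20 and 0.21 ± 0.14 and did not pass in either model.

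The 11 tested proteases and their inhibitors had 0 that fell and 1 that rose in the paired model, and 4 were lower and 5 higher in both pairs. The 1 was Mmp14, the membrane-bound metalloproteinase gene, with 4785 and 4148 units in vector arrays and 6887 and 5641 in Cre arrays (0.48 ± 0.20; limma adjusted p = 0.03 in the paired model). Adamts4, which encodes a versican-cleaving protease, differed by 0.54 ± 0.24, Ctsl, the cathepsin L gene, by 0.19 ± 0.12 and the inhibitor gene Timp2 by 0.17 ± 0.12. These 3 did not pass in either model. Besides Mfap5, genes that passed with the block and whose unpaired difference moved with 1 array left out were Dcn, to -0.91 without Cre array 2 and -3.10 without Cre array 1, Vcan, to -0.33 without vector array 2, and Pcolce2, to 0.45 without vector array 1. Tgfb2 was 0.61 and Mmp14 0.27 without Cre array 1.

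**Figure D4:**
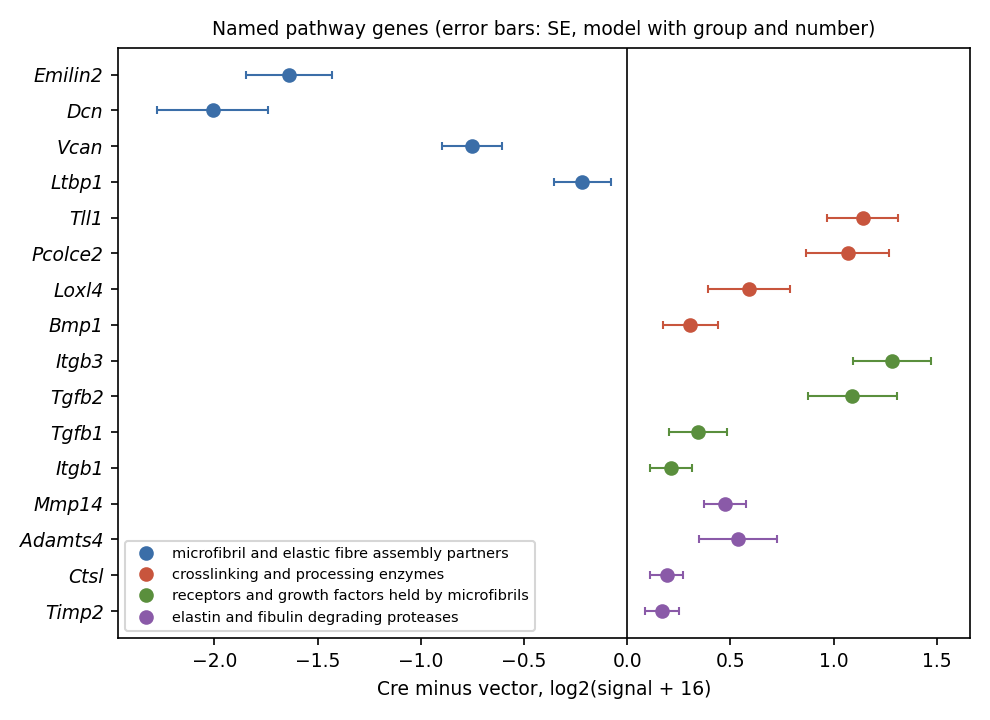
Cre minus vector difference, in log2(signal + 16), of the 4 genes with the smallest p in each of the 4 lists, coloured by list, with SE bars from the model with group and number. The 4 assembly partners lie left of 0, from -2.01 for Dcn to -0.22 for Ltbp1, and the other 12 lie right of it, up to 1.28 for Itgb3. Picked by p, they do not stand for their lists: over the 18 tested assembly partners 6 were lower and 5 higher in both pairs, and Mfap5, which rose with the block, is not drawn.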

How the data were processed

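Total RNA of 4 samples was hybridized to 4 Affymetrix arrays. Per the labels, the authors deposited MAS5 signal intensities on a linear scale. The MAS5 version is not given in these sources. Each array's mean, trimmed by 2% at each end, was 500. Of 45101 probe sets, 64 controls were left out; 34945 of the rest carried 1 symbol. The intensity values were quantile normalized, since the log2 medians of the arrays were up to 0.50 apart, then taken as log2(signal + 16). The 22519 probe sets at or above the 50th percentile were tested with lmFit and eBayes with an intensity trend (limma 3.58.1, R 4.3.3) and Benjamini-Hochberg adjustment over all of them. The fit was tested on simulated data. With a spread that ignored the intensity trend, neither model recovered any planted change. With the spread drawn from the fitted variance prior instead, the paired model recovered most of them with some false calls, and the unpaired model few. These simulated arrays also held each probe set's own number difference from the real arrays, which only the paired model takes up. The prior was fitted to the same real arrays, so whether the paired model suits them better was not tested. A gene is represented by its brightest tested probe set.

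Same-numbered arrays deviated together from their group means (correlation 0.603 across probe sets), and Xist read 11049 and 9810 units in number 1 but 41.8 and 58 in number 2. The numbers were therefore taken to pair the arrays. The paired model has 1 residual and 9.81 prior degrees of freedom, the other 2 and 4.1. The SE and p-values of both, most of all the paired ones, thus rest more on the spread of other probe sets of like level than on the gene's own. An exact two-sided permutation test of 2 against 2 cannot go below 0.333. All members were named, with up to 4 genes per list by smallest p. Members and lists were chosen with earlier results of these data known. Alternatives covered pseudocount, filter, normalization, variance model, the block and leaving out each array. The number of arrays limits the precision, and the paired calls also depend on the level filter and the intensity trend.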

Additional observations from a re-analysis of the deposited data

How the results depend on the processing

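Without the pairing 2 probe sets passed. There was 1 with a pseudocount of 1 and 1 with a 75th percentile filter. Without the level filter there were 0, and 0 without the intensity trend. Median centring gave 16 and the replicate block 708. Leaving out 1 array gave 7 to 28. The groups did not overlap for 4 of 7 members, for 2 of 5 with the 75th percentile filter, and for 4 to 7 of 7 when any 1 array was dropped, since fewer arrays part more easily. In alternatives chosen after seeing the data, the paired model called 4 members in 5 of its 8 other settings. It called 1 (Fbn2) without the level filter and 1 (Fbn2) without the trend, and 2 (Fbln1 and Fbln5) of the 5 left by the 75th percentile filter. Over the settings in which each was tested, adjusted p ran from 9.04e-05 to 0.0416 for Fbn2, 0.000232 to 0.0569 for Svep1, 0.00331 to 0.115 for Fbln1 and 0.000923 to 0.123 for Fbln5 (limma). Between the numbers 3376 probe sets passed, with 780 without the filter, 7277 with median centring and 150 without the trend.

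With 1 array left out, differences ran from -2.53 to -1.49 for Fbn2, -2.21 to -1.61 for Svep1, -1.02 to -0.87 for Fbln1 and -1.35 to -0.45 for Fbln5. The direction turned for Mfap5 (-0.24 to 2.76), for Efemp1 (-1.10 to 0.86), for Lox 1416121_at (-0.95 to 0.14) and for both probe sets of Fbln2 (-0.11 to 0.13, and -0.22 to 0.43). Fbln2 was also -0.029 with median centring, and the dim Fbln1 probe set 1439688_at gave 0.25. The causes were not tested.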
